A study of Mus musculus with 2 samples.

Results

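Long noncoding RNA loci were taken from a gene expression table of the mouse colon cancer line CT26. They were chosen by their type (lincRNA, antisense or processed_transcript) and by their reads, at least 20 summed over the 2 libraries. Host genes and imprinted RNAs with well-known symbols (those starting with Snhg, and Gas5, Zfas1, H19, Meg3, Rian, Mirg, Airn, Kcnq1ot1 and Peg13) were left out, which removed 23 loci, 14 of them with 20 reads or more. The table held 54680 loci, 9165 of them of these types. Of the 9142 left after removing the symbols, 7048 had 0 reads in both libraries, 1552 had 1 to 19 reads, and 542 met the minimum: 238 lincRNA, 187 antisense and 117 processed_transcript loci.

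Cells of the knockdown group (shSetdb1) were infected with a lentivirus that carried a short hairpin RNA against Setdb1. Cells of the control group (shCtrl), which the labels give as wild type, were infected with a lentivirus that carried the empty knockdown vector. Both were grown in RPMI 1640 medium with serum and collected after 6 days, and the labels call the knockdown cells differentiated. Each group had 1 library, made from total RNA with a NEBNext Ultra kit, so every difference below compares 2 libraries without a replicate check, and no p-value was computed. The labels do not say how many hairpins or clones were used.

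SETDB1 methylates lysine 9 of histone H3 and is known for keeping endogenous retroviruses and some genes silent. Long noncoding RNAs are transcripts without a long reading frame, and many are made in small amounts from enhancers, from the opposite strand of a coding gene, or from a coding gene's promoter in the other direction. A few act as scaffolds or decoys, such as Neat1, the core of nuclear bodies called paraspeckles, while for most the RNA itself has no established role.

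RefSeq promoter windows are shown for some of the loci with high or low ratios among those with 100 reads or more, because they show how unlike these promoters are. They are not all of the extremes: Gm32856, with a ratio of 0.160, also had a window, which held 7 CpG and is not shown. Each window runs from 250 bases before to 50 bases after the RefSeq start in the GRCm38.p6 build, 5′ to 3′ on the strand of the RNA. The first 3 belong to loci with more reads in the knockdown library and the last 3 to loci with fewer. Capitals mark the motifs searched for, which are described after the neighbouring genes.
A330074K22Rik, chr8:120228181-120228480, minus strand: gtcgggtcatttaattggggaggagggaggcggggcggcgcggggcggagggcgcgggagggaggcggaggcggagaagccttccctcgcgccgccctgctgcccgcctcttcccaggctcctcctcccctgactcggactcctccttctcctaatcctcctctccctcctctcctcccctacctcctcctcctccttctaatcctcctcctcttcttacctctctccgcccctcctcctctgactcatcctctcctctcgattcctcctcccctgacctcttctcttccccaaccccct
4930447F24Rik, chr9:108133468-108133767, plus strand: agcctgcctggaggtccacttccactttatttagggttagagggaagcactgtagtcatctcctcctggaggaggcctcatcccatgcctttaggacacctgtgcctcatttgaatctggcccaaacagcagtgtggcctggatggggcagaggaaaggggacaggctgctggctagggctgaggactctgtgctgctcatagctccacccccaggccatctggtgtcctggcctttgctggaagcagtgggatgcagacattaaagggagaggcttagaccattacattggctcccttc
2500002B13Rik, chr8:57487713-57488012, plus strand: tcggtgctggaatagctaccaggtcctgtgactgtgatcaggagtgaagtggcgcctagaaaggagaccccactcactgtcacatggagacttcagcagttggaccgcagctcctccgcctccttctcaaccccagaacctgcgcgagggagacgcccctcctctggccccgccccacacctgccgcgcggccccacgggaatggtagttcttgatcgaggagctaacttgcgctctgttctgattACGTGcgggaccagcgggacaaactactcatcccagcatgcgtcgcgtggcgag
Fam120aos, chr13:48967862-48968161, plus strand: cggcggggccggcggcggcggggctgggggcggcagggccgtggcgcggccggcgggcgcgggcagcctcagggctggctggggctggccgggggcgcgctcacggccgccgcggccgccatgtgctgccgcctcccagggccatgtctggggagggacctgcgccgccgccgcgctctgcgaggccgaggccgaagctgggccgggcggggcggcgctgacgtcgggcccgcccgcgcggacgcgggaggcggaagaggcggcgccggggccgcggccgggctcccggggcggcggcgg
Gm13073, chr4:149780888-149781187, minus strand: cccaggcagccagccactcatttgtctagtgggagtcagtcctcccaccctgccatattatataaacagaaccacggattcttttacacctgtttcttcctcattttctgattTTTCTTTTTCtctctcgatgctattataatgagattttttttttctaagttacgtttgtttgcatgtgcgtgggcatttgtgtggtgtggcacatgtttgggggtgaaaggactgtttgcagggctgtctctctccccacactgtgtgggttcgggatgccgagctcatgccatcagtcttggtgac
Gm13470, chr2:46442856-46443155, minus strand: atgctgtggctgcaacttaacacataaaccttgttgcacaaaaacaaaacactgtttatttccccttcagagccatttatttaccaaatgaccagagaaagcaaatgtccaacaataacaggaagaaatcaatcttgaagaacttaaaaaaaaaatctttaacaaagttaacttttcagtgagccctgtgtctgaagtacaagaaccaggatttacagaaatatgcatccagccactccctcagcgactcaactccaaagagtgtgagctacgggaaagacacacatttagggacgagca
The window of Fam120aos, which starts 270 bases from Fam120a on the other strand, held 54 CpG dinucleotides and 86.7% G and C. Those of A330074K22Rik and 2500002B13Rik held 17 and 21 CpG, whereas the windows of Gm13073, Gm13470 and 4930447F24Rik held 6, 3 and 0. CpG-rich and CpG-poor promoters thus stood among the loci with more reads and among those with fewer.

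Setdb1 itself had 1340 reads (10.4 FPKM, fragments scaled by gene model length and depth) in control cells and 317 (2.47 FPKM) after knockdown. The library totals were 18421604 reads for the control and 19045830 for the knockdown. Every ratio below is of reads, knockdown over control, each divided by its library's total, with a 95% exact (Clopper-Pearson) interval that covers counting error only. For Setdb1 it was 0.229 (0.202 to 0.259). The defining epithelial markers Epcam and Cdh1 had 0 reads in both libraries, and of the 7 epithelial markers listed the 3 with 20 reads or more were higher in the knockdown library, Krt18 (1016 and 2423 reads), Krt19 (1 and 53) and Cdx2 (5 and 18). All 4 mesenchymal markers were detected within 2-fold. Of 4 leukocyte markers, Cd3e had 0 reads in both libraries, Ptprc had 0 and 4, and Cd68, also a lysosomal protein of other cells, had 245 and 2360. Summed FPKM moved from 38.1 to 92.3 for the epithelial, from 1166 to 1394 for the mesenchymal and from 10.4 to 100.2 for the leukocyte list, and their part in the results below was not tested. In such bulk libraries, a change in the share of cells making an RNA and a change in RNA per cell cannot be told apart.

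The long noncoding RNA loci took a small and nearly equal share of both libraries. They held 64007 control reads (0.347% of the total) and 64557 knockdown reads (0.339%). Their median was 49 reads summed over both libraries, against 863 for all 12546 loci of the table with 20 reads or more, and their median level was 0.781 FPKM against 6.13 FPKM for protein-coding loci. Of the 542 loci, 266 reached 1 FPKM in at least 1 library and 25 reached 10 FPKM. Only 234 had 20 reads in each library, while 99 passed 20 in the knockdown library alone, 74 in the control library alone, and 135 in neither. At the edge of the rule, 21 loci held exactly 20 reads and 17 loci just outside held 19.

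Few of the loci carried most of the reads. Gm42047 and Gm26917 together held 28.3% of the reads of the 542 loci, and the 10 with most reads held 52.3%. All 542 were found in GENCODE M21 and none was typed protein-coding there. A protein match stood in the authors' table for 136 of them and a Pfam domain for 26, and such a match can also name a coding gene on the other strand or a retroelement. Cct6a, a subunit of the cytosolic chaperonin (4137 and 3298 reads), Tmem134 (1497 and 2022 reads) and Ifi30, a lysosomal thiol reductase of antigen processing (1146 and 1212 reads), carry the names of proteins and were included because the table types them processed_transcript. These 3 lay within 2-fold between the libraries. They were not the only such loci: Zswim6 (177 and 322 reads), Tctn2, Trmt61b, Ptpmt1 and Spata5l1 were also included, each within 2-fold.

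In the knockdown library 110 of the 542 loci (20.3%) were at least 2-fold higher, against 10.7% of all loci with 20 reads or more, and 96 (17.7%) were at least 2-fold lower, against 10.3%. Their median log2 ratio was 0.06 and that of all loci was -0.05. The shares were also set side by side at like read numbers. Between 20 and 49 reads, 43.4% of them and 46.1% of all loci differed at least 2-fold in either direction, and between 50 and 99 reads the shares were 36.8% and 35.8%. With 100 to 199 reads they were 30.9% of 55 noncoding loci and 27.3% of all loci, and with 200 to 499 reads 30.6% of 49 and 22.6%. From 500 to under 1000 reads the noncoding share was the lower one, 14.3% of 14 against 17.9%, and with 1000 reads or more it was 23.5% of only 17 against 12.5%.

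**Figure D1:**
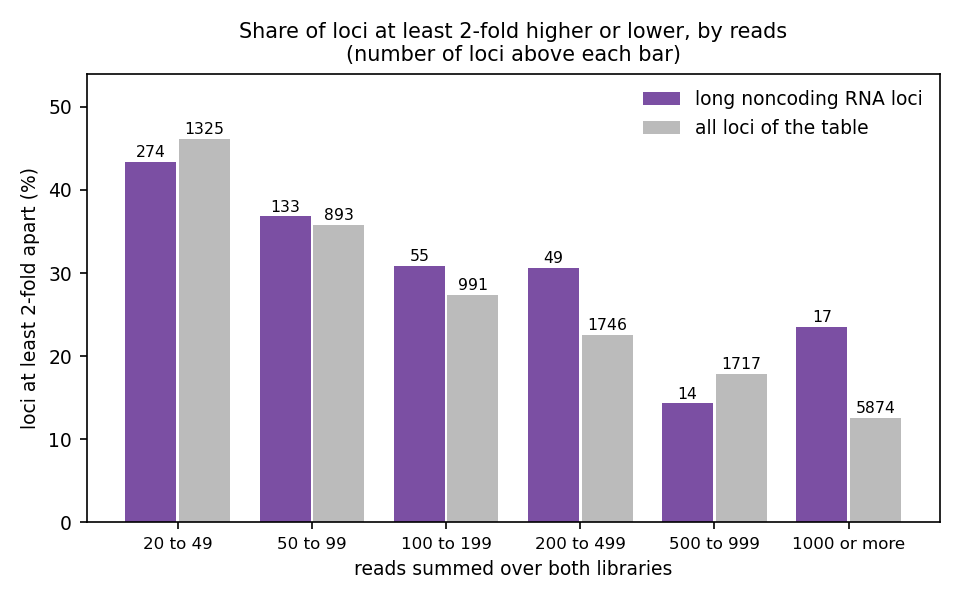
Share of loci at least 2-fold higher or lower in the shSetdb1 library (vertical axis, percent), by reads summed over both libraries (horizontal axis), for long noncoding RNA loci (purple) and all loci of the table (grey), with the number of loci above each bar. Below 100 reads the paired bars lie close together, at 43.4% and 46.1% and at 36.8% and 35.8%.

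The shares lay closer where the whole counting interval had to be past 2-fold: 37 noncoding loci (6.83%) were higher and 34 (6.27%) lower, against 5.88% and 5.37% of all loci. Among the 135 with 100 reads or more, 21 (15.6%) were higher and 17 (12.6%) lower, against 8.01% and 8.53% of the 10328 loci at that minimum. By the whole interval 11 of these 135 (8.15%) were higher and 10 (7.41%) lower, against 5.63% and 5.19%. None of the shares in this paragraph is at like reads. Of the 135 loci 17 had 1000 reads or more, against 5874 of the 10328. The shares by read number above are the closer comparison.

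**Figure D2:**
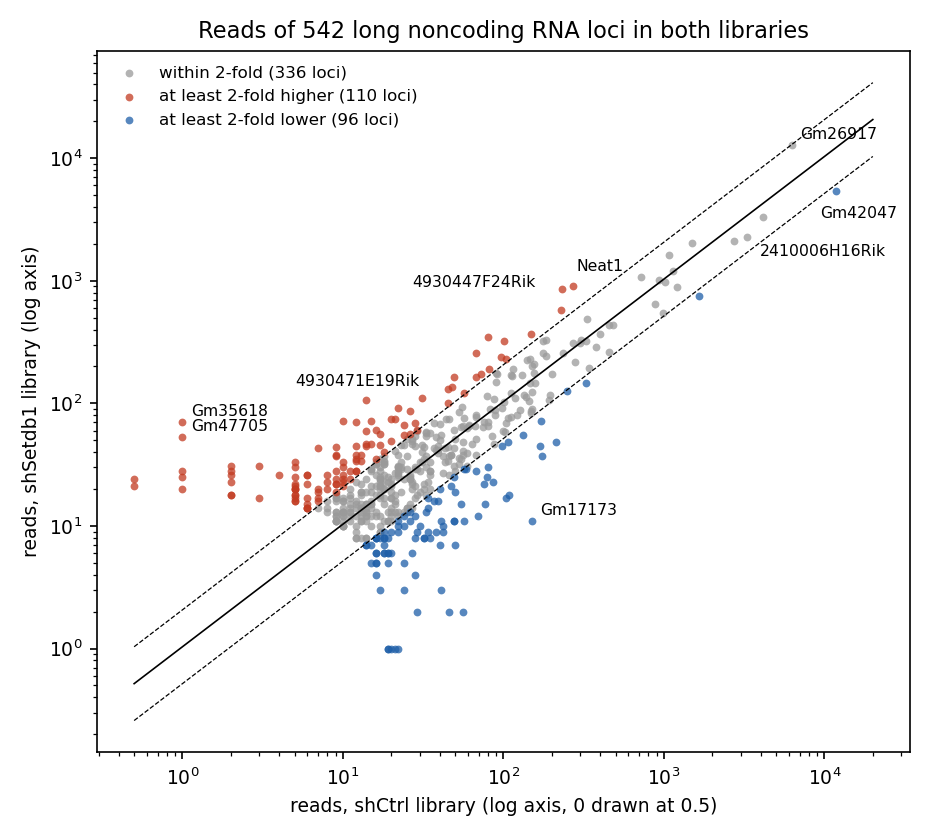
Reads of each of the 542 loci in the shCtrl library (horizontal) and the shSetdb1 library (vertical), both on log axes, with 0 reads drawn at 0.5. The solid line marks equal shares of the library totals and the dashed lines 2-fold, and the 110 higher (red) and 96 lower (blue) loci lie mostly below 100 reads.

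The 8 highest ratios among loci with 100 reads or more belonged to unrelated loci on 6 chromosomes. 4930471E19Rik, a lincRNA on chromosome 10 (120632672 to 120699203, minus strand), had 14 reads in the control and 106 in the knockdown library, a ratio of 7.32 (4.18 to 13.9). A330074K22Rik, which starts 226 bases from Gse1 on the opposite strand, had 80 and 351 reads (4.24, 3.32 to 5.48). Its divergent partner Gse1, a component of corepressor complexes, had 492 and 1051 reads (2.07), so both sides of that promoter were higher. 2500002B13Rik likewise starts 194 bases from Sap30, a subunit of the Sin3 histone deacetylase complex, and had 31 and 110 reads (3.43, 2.29 to 5.29), beside 209 and 481 for Sap30 (2.23).

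Other loci of this group lay opposite coding genes that differed less. 4930447F24Rik lies within Bsn, which encodes a presynaptic scaffold protein, on the other strand, and had 233 and 856 reads (8.28 and 30.4 FPKM), a ratio of 3.55 (3.07 to 4.13), with 476 and 730 reads for Bsn. AC127341.3 starts 21 bases from the start of Hmga1, the gene of a chromatin architectural protein, and had 67 and 258 reads (3.72, 2.84 to 4.95), whereas Hmga1 had 15918 and 13496 (0.820). Gm26724 lies opposite Lemd2, a nuclear envelope protein gene, and had 22 and 92 reads (4.04, 2.52 to 6.77), against 3465 and 2760 for Lemd2 (0.770). In both of these pairs the noncoding locus was higher and the coding gene was not.

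Neat1 (chromosome 19, 5824708 to 5845478, minus strand) had 270 and 910 reads, or 0.694 and 2.34 FPKM, and a ratio of 3.26 (2.84 to 3.75). 9130221H12Rik had 49 and 164 reads (3.24, 2.34 to 4.55), but 52.0% of its exonic bases are also exon of another gene and it lies opposite Gsk3a (3471 and 3229 reads). Whether counting used strand is not given in the sources used here, so reads of such overlapping pairs cannot be assigned with certainty. That limit applies to the 294 loci that share exonic bases with another gene. It may also reach loci that overlap a coding gene without shared exonic bases, such as 4930447F24Rik within Bsn.

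Among the 8 lowest ratios, Gm17173 had the largest difference, with 151 reads in the control and 11 in the knockdown library (0.0705, 0.0344 to 0.130). It lies on chromosome 14 (44972268 to 45006900, minus strand) opposite Ptger2, a prostaglandin E2 receptor gene with 4 and 0 reads, and matches the prostaglandin D2 receptor in the authors' table. Gm32856, with a Gag-Pol match, had 103 and 17 reads (0.160, 0.0896 to 0.268). B230217O12Rik starts 234 bases from Fam160b1 and had 108 and 18 reads (0.161, 0.092 to 0.267), while Fam160b1 had 1142 and 1225 reads, so here only the noncoding side of the promoter was lower.

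For 3 of the lowest loci the nearest coding gene was at least 2-fold lower as well. 2610037D02Rik had 175 and 37 reads (0.204, 0.139 to 0.293), and Arid2, a chromatin remodelling subunit whose start is 3023 bases away, had 788 and 391 (0.480). Gm13073 had 86 and 23 reads (0.259), near Slc25a33, a mitochondrial nucleotide carrier gene with 1337 and 612 (0.443). Fam120aos had 79 and 25 reads (0.306), and Fam120a, an RNA-binding protein gene on the other side of its promoter, had 6528 and 3329 (0.493). The remaining 2, AC166110.4 with 212 and 48 reads (0.219) and Gm13470 with 170 and 45 (0.256), lie far from the nearest expressed coding start, 323902 bases from Sod2 and 1325315 bases from Zeb2.

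**Figure D3:**
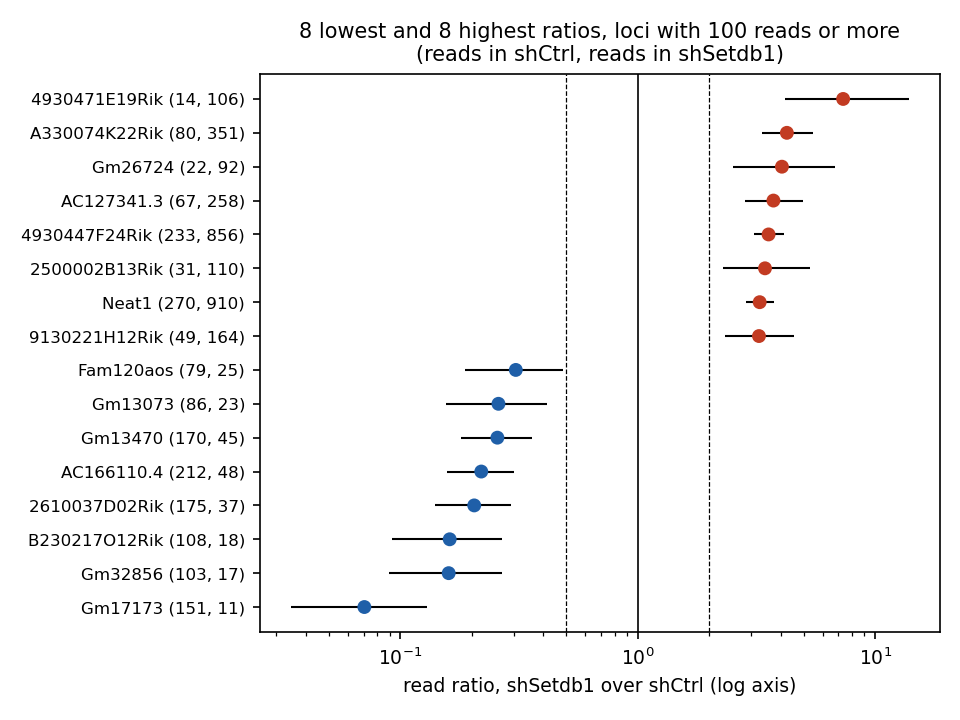
Read ratio, shSetdb1 over shCtrl, on a log axis for the 8 lowest and 8 highest of the loci with 100 reads or more, with 95% counting intervals (bars), reads of both libraries in parentheses, and dashed lines at 2-fold. The ratios run from 0.0705 for Gm17173 to 7.32 for 4930471E19Rik.

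Some loci were read almost only in 1 library. In 26 loci 1 library had 3 reads or fewer, 15 in the control and 11 in the knockdown library, and their folds are poorly bounded. For calling, reads under 3 were set to a floor of 3 per library. Gm44386 had 0 and 24 reads and Gm4211 0 and 21, at least 7.74-fold and at least 6.77-fold higher in the knockdown library by that floor, with counting intervals that begin at 5.82 and 5.04. Gm35618 had 1 and 70 reads, a ratio of 67.7 with an interval of 11.8 to 2712. In the other direction Gm49539 had 56 and 2 reads, a ratio of 0.0345 (0.00408 to 0.131).

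Of the 10 loci with most reads, 2 were called lower, Gm42047 and Tmem250-ps (1641 and 757 reads), and 0 higher. 2410006H16Rik, the host of Snord49a, Snord49b and Snord65, had 379.9 FPKM in the control and 261.7 FPKM in the knockdown library (0.666, 0.631 to 0.703). 1110038B12Rik, the host of Snord52, had 80.1 and 62.4 FPKM (0.753). Snord RNAs are small nucleolar RNAs that guide modification of ribosomal RNA. Over the 10 loci that hold a small nucleolar or Cajal body RNA, reads summed to 10522 and 8065 (0.741). Most of these reads lay in Cct6a (4137 and 3298), 2410006H16Rik (3288 and 2265) and 1110038B12Rik (2718 and 2116). Of the 10, 2 were higher and 2 lower, where the shares over the 542 loci were 20.3% and 17.7%. Over all loci of the table, with a median of 863 reads, they were 10.7% and 10.3%. Among the higher of the 10, 2900076A07Rik holds an RNA named Mir1839, and among the lower, AI506816 holds one named Mir3096. Gm10076 had 130 and 142 FPKM and lay within 2-fold.

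Gm26917 had 100.8 FPKM in the control and 206.0 FPKM in the knockdown library, 6283 and 12845 reads, a ratio of 1.98 just under the 2-fold call. It lies on chromosome 17 (39843013 to 39846341) next to CT010467.1, a ribosomal RNA locus at 39846353 to 39848827, which had 351.4 and 440.4 FPKM (1.21). The part of ribosomal RNA reads in the value of Gm26917 was not tested. Gm42047, a lincRNA on chromosome 8 (121833247 to 121841178) with a Gag-Pol match, had 112.2 and 50.7 FPKM, 11867 and 5361 reads (0.437, 0.423 to 0.451).

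Loci with a match to a retroelement protein, a group formed after the values were seen, differed in both directions. Of 20, 3 were at least 2-fold higher and 6 lower, where the shares over the 542 loci were 20.3% and 17.7%. Over all loci of the table, with a median of 863 reads, they were 10.7% and 10.3%. Over all 70 loci of the table with such a match and 20 reads or more, 10 were higher and 19 lower. The reads of the 20 summed to 13910 and 8001 (0.556). Without Gm42047 the sums were 2043 and 2640 (1.25), so the direction of the sum rests on 1 locus. The 4 that match intracisternal A-particle proteins, a family of mouse endogenous retroviruses, summed to 136 and 317 reads (2.25), led by Gm20559 with 97 and 237. The 9 that match LINE-1 proteins summed to 608 and 568 reads (0.904). A match names a protein like part of the locus, and the loci are whole gene models that may hold other sequence.

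Well-known long noncoding RNAs were followed through 7 lists with 55 symbols. Of these 50 had a locus of the types studied, 23 had 20 reads or more, and 4 of the 23 were at least 2-fold higher, 5 lower and 14 within 2-fold. These counts lie near the shares of all 542 loci, 20.3% and 17.7%, and over all loci of the table the shares were 10.7% and 10.3%. Of the nuclear body RNAs, Neat1 was higher, Malat1, a speckle RNA encoded beside it, had 1015 and 976 reads (0.930, 0.851 to 1.02), and Miat had 0 in both. Neat1 and Malat1, neighbours on chromosome 19, thus differed from each other in their ratio beyond counting error. None of the 10 paraspeckle proteins listed, such as Nono (7971 and 9395 reads) and Sfpq (3677 and 2409 reads), differed 2-fold.

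Of 5 RNAs linked to p53, Myc and genome stability, 2 were at least 2-fold lower and 1 higher. Trp53cor1 (lincRNA-p21), a p53 target upstream of Cdkn1a, had 49 and 11 reads (0.217, 0.102 to 0.423), while Cdkn1a, the cell cycle inhibitor p21, had 14962 and 14059 (0.909). Tug1 had 329 and 146 reads (0.429, 0.351 to 0.523). 2900097C17Rik (Norad), which binds Pumilio proteins, had 992 and 548 reads (0.534), and Pvt1 had 112 and 77 (0.665) beside Myc with 4400 and 1547 (0.340). In contrast Lncpint, another p53-linked RNA, had 14 and 59 reads (4.08, 2.25 to 7.91). Trp53cor1 shares 44.1% of its exonic bases with other annotation and overlaps the lincRNA AC167363.1, which had 15 and 7 reads.

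Among RNAs listed as microRNA hosts by their symbols, Mir17hg, the host of the miR-17-92 cluster, had 28 and 4 reads (0.138, 0.0352 to 0.395). Mir22hg had 27 and 51 reads (1.83, 1.12 to 3.03), Dleu2, the host of miR-15a and miR-16-1, had 32 and 20 (0.605), and Mir155hg had 10 in each. Mirt1 had 149 and 371 reads (2.41, 1.99 to 2.93), but it is a myocardial infarction associated transcript and no microRNA is annotated inside it. Over all 18 loci that do hold an annotated microRNA, 3 were higher and 3 lower, where the shares over the 542 loci were 20.3% and 17.7%. Over all loci of the table, with a median of 863 reads, they were 10.7% and 10.3%. From 20 to under 50 reads, 46.1% of all loci differed at least 2-fold in either direction. The higher ones of the 18 include AL805899.1, which holds Mir31, with 24 and 67 reads, and Lncppara, which holds Mirlet7b and Mirlet7c-2, with 10 and 30.

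Of the X-linked RNAs, 1 was called lower. Firre had 270 and 308 reads (1.10), Ftx 30 and 28 (0.903) and Jpx 22 and 11 (0.484, 0.212 to 1.04), an interval that reached 1. Xist, the RNA that coats the inactive X chromosome, had 0 and 1 read. The immune RNAs stayed within 2-fold: Ptgs2os2 (lincRNA-Cox2) had 147 and 146 reads (0.961), Ptgs2os 126 and 88 (0.676) and Gm14005 (Morrbid) 280 and 219 (0.757), while the interferon-induced AW112010 had 0 in both libraries.

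The development RNAs were scarce. Of 15 found, 7 had 0 reads in both libraries and 2 had 20 or more: Fendrr, beside Foxf1, with 397 and 371 reads (0.904), and Hotairm1 with 67 and 38 (0.549). Of the cytoplasmic and post-transcriptional RNAs, Dancr had 76 and 22 reads (0.280, 0.166 to 0.455), Epb41l4aos 236 and 260 (1.07), and Gm15441, which runs opposite the thioredoxin regulator Txnip, 12 and 35 (2.82, 1.43 to 5.97). Txnip itself had 10955 and 35228 reads (3.11), and 36.2% of the exonic bases of Gm15441 are shared with another gene. Of the 17 proteins of the nuclear exosome and its NEXT and PAXT adaptors with 20 reads or more, which degrade many nuclear noncoding RNAs, 3 were at least 2-fold lower, Exosc5 (0.435), Exosc1 (0.454) and Rbm7 (0.477), and 0 were higher. Over all loci 10.3% were lower and 10.7% higher, and nothing particular to these 17 is read from their count.

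**Figure D4:**
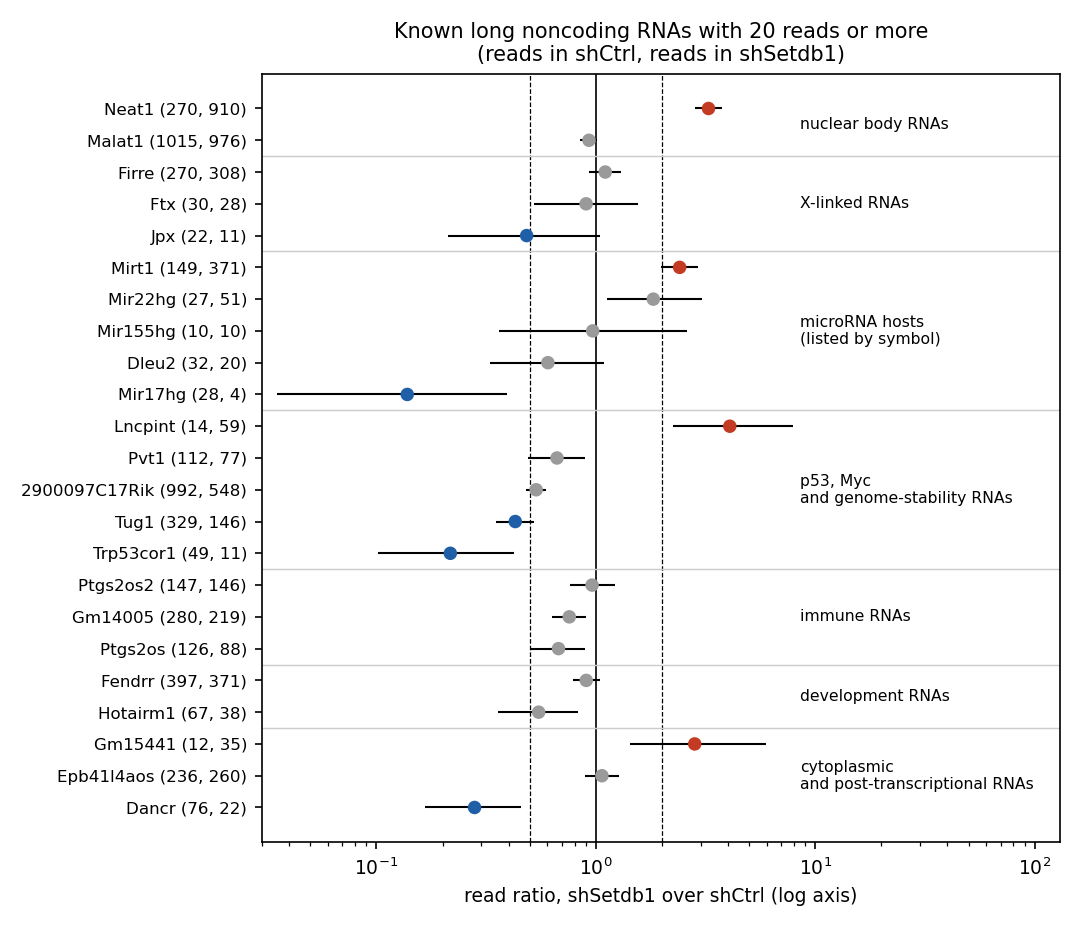
Read ratio, shSetdb1 over shCtrl, on a log axis for the 23 known long noncoding RNAs with 20 reads or more, by list, with 95% counting intervals (bars), reads of both libraries in parentheses, and dashed lines at 2-fold. Neat1, Lncpint, Mirt1 and Gm15441 lie above 2-fold, and Mir17hg, Trp53cor1, Dancr, Tug1 and Jpx below 0.5.

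Position relative to coding genes did not separate higher from lower loci clearly. A divergent locus starts within 1000 bases of a coding start on the opposite strand, with that coding start lying behind its own. Of 114 such loci, 16 were higher and 22 lower. Pairs that overlap at their starts, such as AC127341.3 and Hmga1, were not counted as divergent but as overlapping on the opposite strand. Of 227 other loci that overlap a coding gene on the opposite strand, 48 were higher and 43 lower; a divergent locus that also overlaps a coding gene was counted as divergent only. The 125 loci further than 10 kb from a coding gene had 30 higher and 21 lower, and the 63 within 10 kb had 16 and 7. Of only 13 that overlap a coding gene on the same strand, 0 were higher and 3 lower, and the highest of these with 100 reads, 1810026B05Rik, which overlaps the end of Chd2 that holds its start, had 140 and 227 reads (1.57) against 684 and 377 for Chd2. Over all 542 loci 20.3% were higher and 17.7% lower, and over all loci of the table with 20 reads or more 10.7% and 10.3%. None of the differences between classes was tested.

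Each locus was compared with the nearest coding gene that had 20 reads or more, by distance between starts. Of the 206 loci at least 2-fold apart, 122 (59.2%, 52.2 to 66.0) lay on the same side of 1 as that gene. Of 2167 such protein-coding loci, 1299 (59.9%, 57.8 to 62.0) did so with their own nearest coding gene. The ranges in parentheses are binomial intervals that treat loci as independent draws. Loci share both libraries and some share a neighbour, so these ranges do not measure replicate spread. Of the 110 higher loci 25 (22.7%) had a neighbour at least 2-fold higher, against 17.8% for coding loci, and of the 96 lower loci 10 (10.4%) had a lower one, against 12.1%. The 542 loci share libraries and in part neighbours (503 distinct genes). Across them Pearson's r between the log2 ratios of locus and neighbour was 0.17, and 0.15 across coding loci. Spearman's rank correlation was 0.22 and 0.13. The median distance between starts was unlike, 6711 bases for noncoding and 28084 for coding loci, and the sets were not matched for reads. With the neighbour's start within 10 kb, 63 of 104 noncoding loci at least 2-fold apart (60.6%) and 305 of 483 coding loci (63.1%) shared its side. Over all 290 noncoding and 3192 coding loci with such a neighbour, Pearson's r was 0.26 and 0.17, and Spearman's 0.29 and 0.18. By the counts a noncoding locus followed its neighbour about as often as a coding gene did. The correlations were higher for the noncoding loci, a difference that was not tested.

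Of the 25 pairs that were higher together, a few are named here, chosen after their values were seen. Dhx58os had 12 and 70 reads (5.64, 3.04 to 11.4), and Dhx58, the RNA sensor LGP2 that it overlaps, had 111 and 1697 (14.8). 9330175E14Rik had 5 and 30 reads, beside 215 and 450 for Nlrc5, the activator of MHC class I genes, and Gm11131 had 12 and 28 beside 1060 and 4194 for the class I gene H2-Q4. All 3 overlap their coding partner, so part of their reads could come from it. Gm20559, which overlaps no coding gene, lies 53444 bases from the start of Samd9l, an interferon-induced gene with 15 and 113 reads (7.29).

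Of further such pairs, Mirt1 lies 64313 bases from Dusp5, an ERK phosphatase gene with 521 and 2749 reads (5.10), and 2610035D17Rik (15 and 72 reads) lies 419614 bases from the transcription factor gene Sox9 (481 and 1109 reads). Gm47705 had 1 and 53 reads, a ratio of 51.3 (8.81 to 2062), and lies 84628 bases from Id2, an inhibitor of transcription factors, with 338 and 1454. Among pairs lower together, E230016M11Rik had 24 and 5 reads opposite the growth arrest gene Gadd45a, which it overlaps, with 1851 and 233, and C130036L24Rik had 49 and 25 beside nucleolin, Ncl, with 5678 and 2367. Opposite cases existed as well: 4930471E19Rik, the highest of the loci with 100 reads, had as nearest expressed coding gene Msrb3, 199898 bases away, with 215 and 54 reads (0.243).

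**Figure D5:**
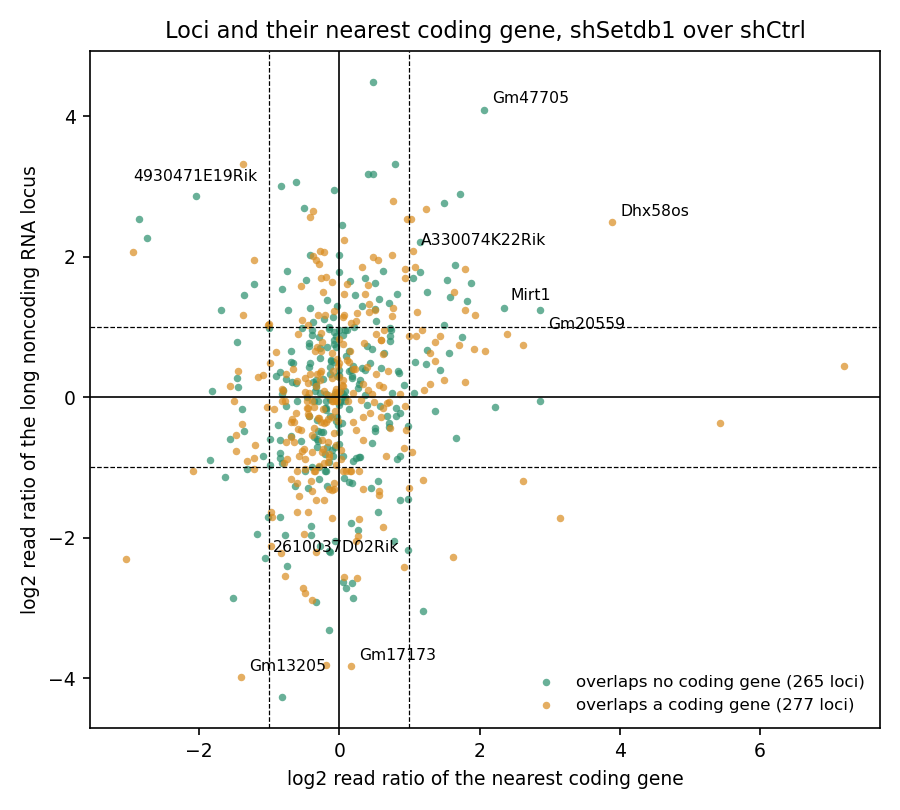
Log2 read ratio, shSetdb1 over shCtrl, of each of the 542 loci (vertical) against that of its nearest coding gene with 20 reads or more (horizontal), for loci that overlap a coding gene (orange, 277) and those that overlap none (green, 265), with dashed lines at 2-fold. Loci lie above and below 0 on both axes (r of 0.17 across loci), with pairs such as Dhx58os and Mirt1 to the upper right.

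Called loci within 100 kb of each other formed 14 neighbouring pairs, 9 in the same direction and 5 in opposite directions. Gm35618, 4930547H16Rik and Gm26819 on chromosome 13 were higher in a row. Gm49539 (56 and 2 reads) and Lncppara, which overlap on chromosome 15, went in opposite directions.

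Promoter windows were available for 246 of the loci: 297 matched RefSeq by symbol, and those whose start lay over 500 bases from that of the table were left out. Motifs were searched on both strands, and they may overlap each other. ACGTG, the core of a hypoxia response element, was found in 16 windows of 45 higher loci (35.6%), 8 of 42 lower ones, 45 of the 159 others (28.3%) and 19.6% of all 32851 promoters. In 2500002B13Rik it starts 4 bases before the RefSeq start, the stretch in capitals above. GAAA followed after any 2 bases by GAAA, the core of an interferon-stimulated response element, was found in 0% of the higher, 2.38% of the lower and 3.44% of all windows, and Gm13073, a lower locus, holds it on the opposite strand 137 bases before the start. TTCNNNGAA, the core of a STAT site, was found in 2.22%, 4.76% and 8.30%. Median CpG counts were 11 for higher, 21.5 for lower and 17 for the other loci, against 7 for all promoters. These are matches of letters, not bound sites, and the differences were not tested.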

How the data were processed

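RNA from 2 cultures of CT26 cells, 1 with a Setdb1 hairpin and 1 with the empty vector, was sequenced, 1 library each. The authors deposited FPKM values for 54680 loci with length, position, type and protein matches. The submitters' processing notes name CASAVA, HISAT2, featureCounts 1.5.0-p3 and GRCm38, without settings. Positions were compared with GENCODE M21, and 531 of the 542 loci had the same span.

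Multiplying FPKM by gene length and dividing by 1 shared step gave reads, and 100% of the values came out whole (tolerance 0.01). Both columns had been divided by 1 depth of 18731117 reads, so ratios were computed over each library's own total. With 1 library in each group, no test was run. Reads under 3 were set to 3, and a ratio of 2 or more, or 0.5 or less, was called. The calculation was checked on simulated data.

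The members, lists and tests were chosen with earlier results of these data known. Loci named were Setdb1, the 8 highest and 8 lowest ratios with 100 reads or more, the 6 highest levels, the extremes of each position class, the listed RNAs with 20 reads or more, and their nearest coding genes; some of these are not reported here. Any other name either illustrates a count or was picked with its values in view, as the text states. Alternatives were other scalings, pseudocounts, read minimums, folds and sets of loci. Tools were numpy 2.4.6, scipy 1.17.1, pandas 2.3.3 and matplotlib 3.10.9 under Python 3.11.15.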

Additional observations from a re-analysis of the deposited data

How the results depend on the processing

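The counts of loci at least 2-fold higher and lower (110 and 96) depended on the read minimum, the scale and the set of loci. They were 20 and 19 with log2(FPKM + 1), which pulls low levels together, 200 and 166 with a minimum of 10 reads, 48 and 39 with 50, and 21 and 17 with 100. They were 54 and 42 without loci that overlap a coding gene, and 56 and 40 without those sharing exonic bases, an alternative added after the data were seen. A 1.5-fold threshold gave 172 and 157, a 4-fold threshold 33 and 33, and the whole interval past 2-fold 37 and 34. The median log2 ratio of 0.06 became -0.0195 with a minimum of 100 reads and 0.19 without shared exonic bases. Higher loci were 53.4% of those called, and 51.3% to 60.0% over the scalings and pseudocounts. Of 276 alternative values for named loci and Setdb1, 250 moved less than their counting interval, 26 moved more, 20 of them with log2(FPKM + 1), and 0 changed direction. Gm26917, just under 2-fold with the libraries' own totals, passed it with each of the other scalings (log2 ratio 1.03 with median-ratio scaling). No paired analysis was possible because there was a single library of each kind. The median locus had 49 reads, so 2-fold differences there are near the limit of the counts.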

Other observations

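Noncoding loci of other types were outside the rule and were read in smaller numbers. Of 3160 loci typed TEC, a label for models still awaiting experimental evidence, 56 had 20 reads or more, and 8 of them were at least 2-fold higher and 17 lower in the knockdown library. AC160637.1, a TEC locus on chromosome 9 (59672814 to 59676700), had 280 reads in the control and 1537 in the knockdown library, a ratio of 5.31 (4.67 to 6.05), and Gm4430 had 154 and 22 (0.138, 0.0841 to 0.217). Of 165 loci typed bidirectional_promoter_lncRNA, 34 had 20 reads or more, with 4 higher and 4 lower, among them D430020J02Rik with 105 and 233 reads (2.15). Of 320 sense_intronic loci 9 had 20 reads, with 1 higher and 2 lower. Over all loci of the table with 20 reads or more, 10.7% were higher and 10.3% lower. From 20 to under 50 reads, 46.1% of all loci differed at least 2-fold in either direction. Median summed reads were 44 for the TEC, 47 for the bidirectional_promoter_lncRNA and 45 for the sense_intronic loci. Whether their counts differ from those of all loci at like reads was not tested. The loci named here were chosen after their values were seen.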
